A study of Mus musculus with 17 samples.

Results

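The periportal and urea cycle genes are a set of 10 genes that hepatocytes near the portal vein express strongly, namely Cps1, Otc, Ass1, Asl, Arg1, Pck1, Hal, Sds, Gls2 and Cyp2f2. They were taken as the array probes whose gene symbol on the platform is one of these names. Of the 10 genes, 8 were found, through 11 of the 25697 probes, and all 8 passed the filter on dim probes that left 12863 genes to test. Of these, 11792 have a gene symbol, and the others are single probes without one, counted as genes here. Sds, a serine dehydratase, and Gls2, the liver glutaminase, had no probe under their symbols and were not analysed here.

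Gene expression was measured on 17 Illumina bead arrays of mouse liver RNA. The first group holds 4 arrays of CCl4-treated livers labelled tk FSP1 +, in which cells expressing FSP1 were ablated, and the second holds 3 arrays of CCl4-treated livers labelled tk aSMA +, in which cells expressing aSMA were ablated. The other groups are 6 arrays of CCl4-treated livers labelled tk Neg, called CCl4 livers here, and 4 arrays of healthy livers without treatment, labelled tk No. Carbon tetrachloride (CCl4) is a solvent that injures hepatocytes around the central vein and scars the liver, and all 3 treated groups share it. S100a4 encodes FSP1, a protein found in fibroblasts and some blood cells, and Acta2 encodes aSMA, the smooth muscle actin of myofibroblasts. The sources used here give no strain, age, sex, dose, length of treatment or account of how the cells were ablated, and do not say whether each array is a separate animal, so the p-values measure the spread between arrays, which may be technical.

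The urea cycle turns toxic ammonia into urea and runs mainly in periportal hepatocytes, which receive amino acids and oxygen first from the portal blood. Cps1 joins ammonia and bicarbonate to carbamoyl phosphate in the mitochondrion, Otc transfers it to ornithine to give citrulline, Ass1 and Asl turn citrulline and aspartate into arginine and fumarate, and Arg1 splits arginine into urea and ornithine. The same hepatocytes make glucose from amino acids and lactate, for which Pck1 is a key enzyme, and break down histidine, which Hal starts. Cyp2f2 is a cytochrome P450 widely used as a marker of the periportal zone.

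Promoters are shown for Pck1 and Hal, whose signals varied together across arrays (given below), and for Cyp2f2, the marker of the set whose spread in FSP1 ablated livers was widest. The RefSeq promoter table (GRCm38.p6) held 5 of the 10 genes, namely Ass1, Cyp2f2, Hal, Otc and Pck1. Each sequence is the 250 bases before the gene start on the plus strand, at chr2:173152823-173153072 for Pck1, chr10:93488518-93488767 for Hal and chr7:27119705-27119954 for Cyp2f2, and capitals mark the motifs found.
Pck1: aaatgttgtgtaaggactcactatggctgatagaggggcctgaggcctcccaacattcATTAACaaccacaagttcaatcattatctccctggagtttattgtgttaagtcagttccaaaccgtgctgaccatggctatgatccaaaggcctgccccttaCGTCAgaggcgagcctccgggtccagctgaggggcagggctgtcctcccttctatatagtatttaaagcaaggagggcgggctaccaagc
Hal: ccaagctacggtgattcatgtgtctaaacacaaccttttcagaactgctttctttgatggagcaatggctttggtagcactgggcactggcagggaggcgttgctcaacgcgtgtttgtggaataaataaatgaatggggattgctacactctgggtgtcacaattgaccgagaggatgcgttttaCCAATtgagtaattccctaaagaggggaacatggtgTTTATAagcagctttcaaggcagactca
Cyp2f2: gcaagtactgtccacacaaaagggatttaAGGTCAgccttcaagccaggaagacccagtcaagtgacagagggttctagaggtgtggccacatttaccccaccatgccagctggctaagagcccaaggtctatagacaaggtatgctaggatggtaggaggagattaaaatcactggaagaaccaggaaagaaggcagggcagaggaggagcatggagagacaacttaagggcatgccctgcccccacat

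The motifs were searched on both strands. They were TGACGTCA, the site of CREB, and its shorter form TGACG, which it contains, the C/EBP palindrome TTGCGCAA and AGGTCA, a core site of nuclear receptors. Also searched were CCAAT, the box bound by NF-Y, TATAAA, the TATA box, GTTAAT, a core site of HNF1, and TGTTTAC, a forkhead site. Pck1 held TGACG on the minus strand, starting 90 bases before the gene start, and GTTAAT on the minus strand. TGACG was found in 17.8% and GTTAAT in 6.43% of the 32851 windows of the same length in the table. Hal held CCAAT, found in 33.8% of windows, and TATAAA on the minus strand, found in 12.4%. Cyp2f2 held AGGTCA, found in 14% of windows. Ass1 held none of these letters in its window. The window of Otc in the table overlaps its gene model, which starts before the window ends, and was not read as a promoter. The matches are a description of the sequence.

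Values are normalized log2 intensities, so that a difference of 1 is a doubling of signal, and differences are log2 differences with their standard errors (SE) from a limma fit to all 17 arrays. A gene passed when its p, adjusted over all 12863 genes by the Benjamini-Hochberg method, was under 0.05. Probes above background numbered 13784 to 15869 per array, and precision is limited by how many arrays a group has. Of the genes that name the ablations, Acta2 read 7.07 to 7.84 in FSP1 ablated livers, 7.47 to 9.34 in aSMA ablated livers, 9.18 to 11.35 in CCl4 livers and 6.98 to 8.62 in healthy livers. S100a4 stayed between 6.09 and 6.4 on all arrays, low in a range that starts at 5.65, and differed by -0.03 (adjusted p = 0.847) between FSP1 ablated and CCl4 livers. Hepatocyte markers Apoa1 and Ttr read 14.18 or more on every array, near the highest normalized value of 14.88. Serpina1a, another hepatocyte marker, read 12.90 to 13.57 in healthy livers and 12.20 to 12.57 on CCl4 arrays 1 to 4. CCl4 arrays 5 and 6 lay inside its healthy range. It read 12.27 to 13.04 in FSP1 ablated and 12.52 to 12.72 in aSMA ablated livers. The probe of Alb, albumin, read 8.66 to 9.33 in aSMA ablated livers and on CCl4 arrays 4 to 6 but 6.29 to 6.75 elsewhere. Xist, made from the inactive X chromosome of females, was raised on CCl4 arrays 1 to 3 and on every array of both ablations, and the Y-linked Eif2s3y was raised on the 4 healthy arrays and CCl4 arrays 5 and 6. CCl4 array 4 showed neither. Differences are therefore also given with CCl4 arrays 1 to 3 or 4 to 6 alone. Arrays 1 to 3 differ in these signals from every healthy array, and of arrays 4 to 6 only 5 and 6 share the Y-linked signal. Neither part therefore removes sex from the comparison with healthy livers. In the deposited table the upper quartile of signal lay between 165.4 and 178.8 for treated livers and between 63.7 and 65.7 for healthy livers, so comparisons with healthy liver lean on the normalization. Without normalization, CCl4 livers exceeded healthy livers by a median of 1.02 (log2) over all genes.

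**Figure D1:**
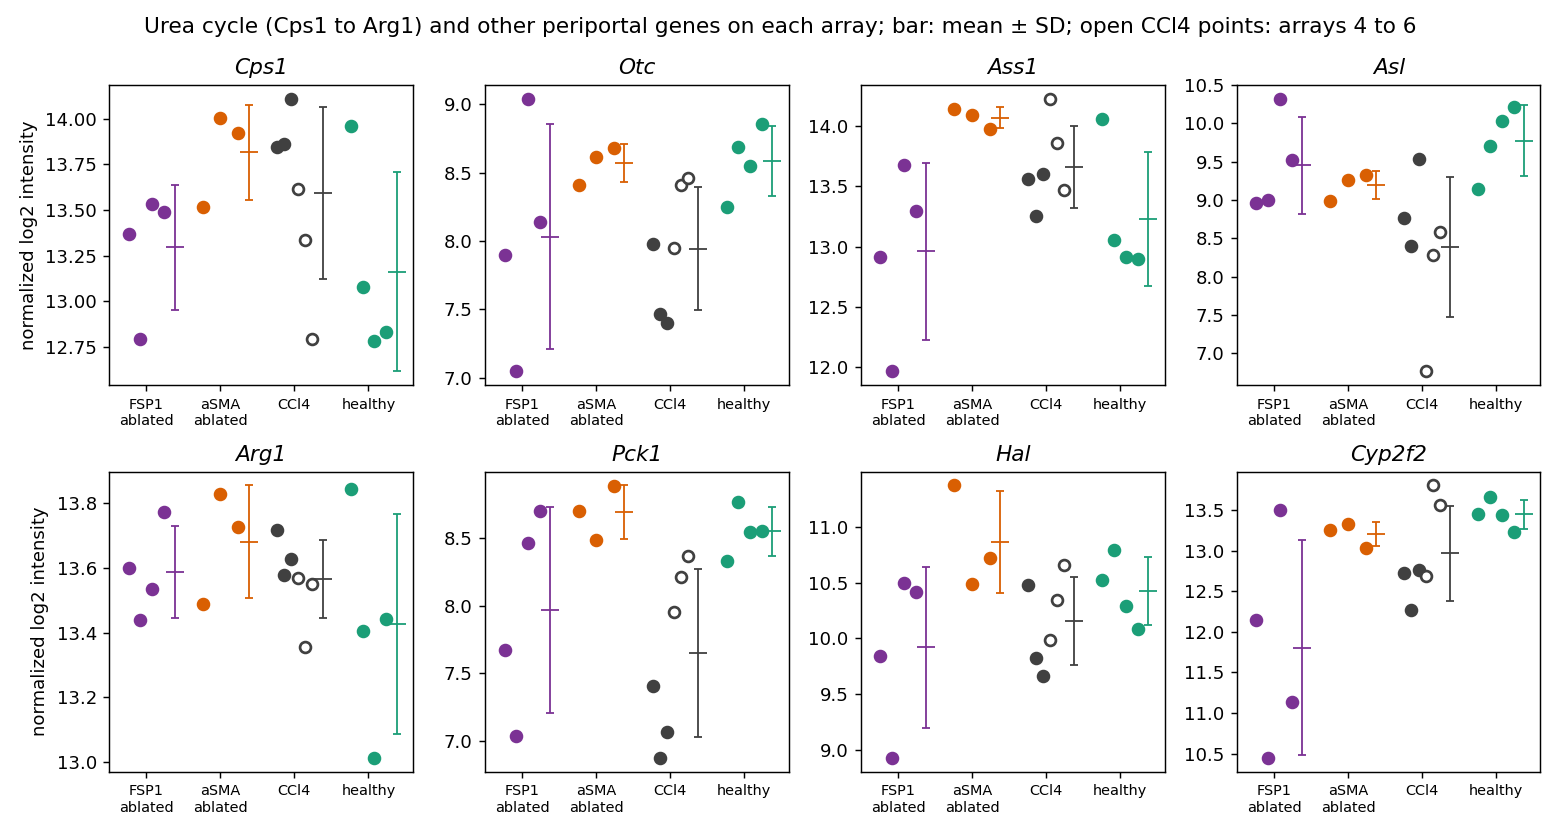
Normalized log2 intensity (vertical axes, with a range of their own in each panel) of the 8 measured genes on each of the 17 arrays, by group, with the mean ± SD as a bar beside the points. Open points are CCl4 arrays 4 to 6. Pck1 lay at 6.87 to 7.41 on CCl4 arrays 1 to 3 and at 7.95 to 8.37 on arrays 4 to 6, and Cyp2f2 reached down to 10.44 in FSP1 ablated livers.

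CCl4 livers were compared with healthy livers to see how fibrotic injury left the portal side of the lobule. Of the 8 measured genes, Asl and Pck1 fell and none rose, against 34.2% of all genes that passed in either direction, 17.3% lower and 16.9% higher. The members that passed and their direction depended on the scaling. On the deposited scale Hal, Cps1, Ass1 and Arg1 passed as higher, at 0.82, 1.19, 1.14 and 0.92, and none passed as lower, where 66.5% of all genes passed. With arrays centred on their median Cps1, Ass1 and Arg1 passed as higher, at 0.90, 0.86 and 0.63, and none as lower, where 56% of all genes passed. The median difference of the 8 genes was -0.37, beside -0.02 over all genes. The arrays of both groups overlapped for each of the 8 genes, where 21.1% of all genes showed no overlap. An unadjusted p under 0.05 was found for 3 of 8 genes, against 44.4% of all genes. Fewer hepatocytes of a kind and less RNA in each cannot be told apart in bulk liver RNA, here and below.

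Asl, argininosuccinate lyase, read 8.76, 8.41, 9.53, 6.76, 8.28 and 8.58 on CCl4 arrays 1 to 6, against 9.15, 9.71, 10.03 and 10.21 on the healthy arrays. All CCl4 arrays but array 3 lay below every healthy array, and array 4 was the lowest by a wide margin. The means were 8.39 ± 0.91 in CCl4 livers (SD, n = 6) and 9.77 ± 0.47 in healthy livers (SD, n = 4). Asl fell by 1.39 on the log2 scale (SE 0.40, adjusted p = 0.0152), to 0.382 times the healthy signal. The other probe of Asl read 6.60 to 8.86 in CCl4 livers and 8.62 to 9.69 in healthy livers and gave -1.36 (SE 0.35, adjusted p = 0.00833 with every probe on its own). The adjusted p ranged from 0.00416 to 0.478 over 31 alternatives. It was 0.122 with CCl4 arrays 1 to 3 alone, 0.105 with the Y-linked signal as a block and 0.0537 without healthy array 4, and the difference was -0.46 (adjusted p = 0.478) on the deposited scale, which relative to the median of all genes there is -1.48. With arrays centred it was -0.61 (adjusted p = 0.228), or -0.91 relative to that median.

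Pck1, the cytosolic phosphoenolpyruvate carboxykinase, read 7.41, 6.87, 7.07, 7.95, 8.21 and 8.37 on the CCl4 arrays, against 8.33, 8.77, 8.54 and 8.55 on the healthy arrays. CCl4 array 6 lay just above the lowest healthy array and the other CCl4 arrays lay below all 4. The means were 7.65 ± 0.62 in CCl4 livers (SD, n = 6) and 8.55 ± 0.18 in healthy livers (SD, n = 4). Pck1 fell by 0.90 (SE 0.32, adjusted p = 0.0413), which is close to the threshold. By parts of the CCl4 group it was -1.43 (adjusted p = 0.00168) for arrays 1 to 3 and -0.37 (adjusted p = 0.377) for arrays 4 to 6, within a range of the adjusted p of 0.00168 to 0.839 over 31 alternatives. Leaving out healthy array 2, 3 or 4, CCl4 array 1, 2 or 3 or aSMA ablated array 1 raised the adjusted p above the threshold, to at most 0.101. With the Y-linked signal as a block the difference was -0.26 (adjusted p = 0.669). On the deposited scale Pck1 differed by 0.12 (adjusted p = 0.839), which relative to the median of all genes there is -0.89, and with arrays centred by -0.10 (adjusted p = 0.789), or -0.41 relative to that median.

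The other 4 urea cycle enzymes did not pass in either direction. Otc, ornithine transcarbamylase, read 7.97, 7.47, 7.40, 7.95, 8.41 and 8.46 on the CCl4 arrays and 8.25, 8.68, 8.55 and 8.86 on the healthy arrays, which overlap. It differed by -0.64 (SE 0.30, adjusted p = 0.108), with a 95% confidence interval of -1.27 to -0.01. With CCl4 arrays 1 to 3 alone it differed by -0.97 (adjusted p = 0.0295), and with arrays 4 to 6 alone by -0.31 (adjusted p = 0.505). With the Y-linked signal as a block the difference was -0.15 (adjusted p = 0.811). The adjusted p ranged from 0.0276 to 0.811 over 31 alternatives. The other Otc probe was above background on 5 of 17 arrays and says nothing on the gene's level.

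Cps1, the most abundant matrix protein of liver mitochondria, read 13.84, 13.86, 14.11, 13.61, 13.34 and 12.79 on the CCl4 arrays, against 13.96, 13.08, 12.78 and 12.83 on the healthy arrays. The groups overlapped through healthy array 1 and CCl4 array 6. The difference was 0.43 (SE 0.26, adjusted p = 0.217), and without healthy array 1 it was 0.70 (adjusted p = 0.0346). The adjusted p ranged from 0.000713 to 0.85 over all alternatives, lowest on the deposited scale.

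Ass1, argininosuccinate synthetase, averaged 13.66 ± 0.34 in CCl4 livers (SD, n = 6) and 13.23 ± 0.56 in healthy livers (SD, n = 4) and differed by 0.43 (SE 0.29, adjusted p = 0.27). Arg1, arginase, had the smallest standard error of the 8 genes in the fit, and read 13.36 to 13.72 in CCl4 livers and 13.01 to 13.84 in healthy livers. It differed by 0.14 (SE 0.13, adjusted p = 0.414), with an interval of -0.13 to 0.41. Signals of Cps1, Ass1 and Arg1 lay near the top of the normalized range, which ended at 14.88, and whether the array compresses differences there was not tested.

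The adjacent cycle enzymes Ass1 and Asl thus stood on different sides of 0, the first with an interval of -0.19 to 1.05 and the second with one of -2.25 to -0.53, and the gap between them was not tested. Hal averaged 10.16 ± 0.39 in CCl4 livers (SD, n = 6) and 10.42 ± 0.31 in healthy livers (SD, n = 4), a difference of -0.27 (SE 0.29, adjusted p = 0.503). Cyp2f2 read 12.72, 12.27, 12.76, 12.68, 13.80 and 13.56 on the CCl4 arrays and 13.45, 13.66, 13.44 and 13.23 on the healthy arrays. CCl4 arrays 1 to 4 lay below every healthy array and arrays 5 and 6 did not. It differed by -0.48 (SE 0.44, adjusted p = 0.421).

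Markers of other cells moved in this comparison too. The mean over 7 stellate cell and fibroblast markers was 7.68 to 8.16 on CCl4 arrays and 6.36 to 6.74 on healthy arrays, with 5 of 7 higher, and that over 4 macrophage markers, of which Cd5l was below background on every array, was 8.29 to 8.73 against 7.56 to 8.10. Over 3 neutrophil markers it was 7.80 to 9.24 on CCl4 arrays and 6.94 to 7.92 on healthy arrays, with 2 of 3 higher and a median difference of 1.70. Over 6 hepatocyte markers it was 12.33 to 12.83 in CCl4 livers and 12.52 to 12.59 in healthy livers, with 1 of 6 lower and none higher. This last mean holds the probe of Alb, which divides the CCl4 arrays. The part of all these markers in the falls of Asl and Pck1 was not tested. All genes gave 2170 higher and 2224 lower calls after quantile normalization, 8494 higher and 66 lower on the deposited scale, and 6366 higher and 834 lower with arrays centred on their median.

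**Figure D2:**
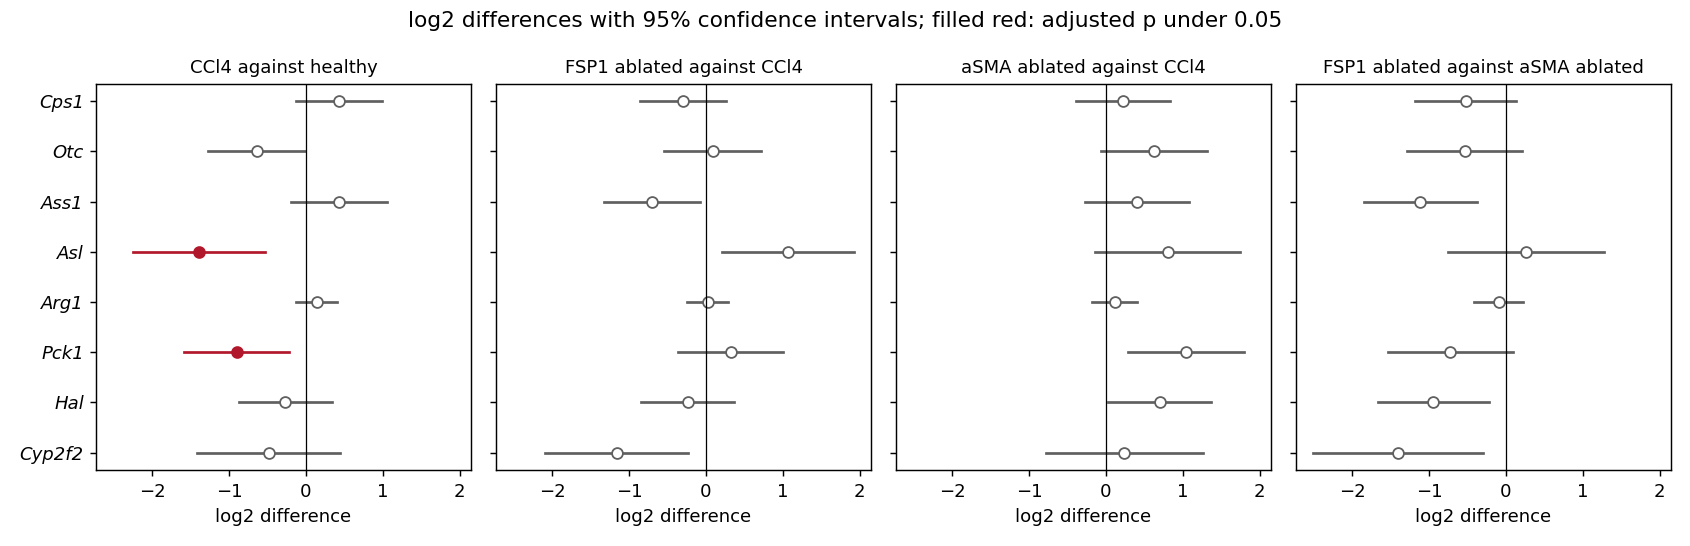
log2 differences (horizontal axes) of the 8 genes in 4 comparisons, with 95% confidence intervals from the limma fit. Filled red points have an adjusted p under 0.05. Asl and Pck1 are the filled points, at -1.39 and -0.90 in CCl4 against healthy livers, and no gene is filled in the other 3 panels.

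Genes that feed the urea cycle or share its pathways were read from lists, with the 8 genes left out. In CCl4 against healthy livers 17.3% of all genes passed as lower and 16.9% as higher. Lower calls numbered 2224 after quantile normalization, 66 on the deposited scale and 1140 with the Y-linked signal as a block. Higher calls numbered 2170, 8494 and 1350, in the same order. Of 15 measured genes of urea cycle support and ammonia handling, 3 fell in CCl4 livers against healthy livers, 1 rose and 11 did not pass, with a median of -0.08. Aqp9, a channel that takes up glycerol and also carries urea, averaged 12.34 in CCl4 livers and 13.07 in healthy livers, and fell by 0.74 (SE 0.14, adjusted p = 0.000804). Slc38a3, an importer of glutamine, fell by 0.90 (adjusted p = 0.016) and Slc25a13, the mitochondrial carrier that exports aspartate for Ass1, fell by 0.71 (adjusted p = 0.00734). Glud1, which frees ammonia from glutamate, rose by 0.96 (adjusted p = 0.0103).

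Amino acid catabolism showed more falls. Of 44 measured genes 18 fell and 1 rose, beside 17.3% and 16.9% of all genes, with a median of -0.38 beside -0.02 over all genes. Oat, which degrades ornithine and is enriched in pericentral cells, fell by 2.86 (SE 0.41, adjusted p = 8.9e-05) and Csad, which makes hypotaurine from cysteine, fell by 2.47 (adjusted p = 0.0014). Hpd of tyrosine breakdown fell by 1.28 and Cth of cysteine synthesis fell by 0.73.

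Of 10 measured gluconeogenesis genes other than Pck1, 3 fell and none rose, with Gcgr, the glucagon receptor, at -0.93 (SE 0.19, adjusted p = 0.00157). The list of 22 other periportal genes went both ways, with 5 higher and 4 lower. Apoa4, an apolipoprotein, rose by 3.57 (adjusted p = 1.16e-07), Cdh1, the epithelial cadherin, rose by 1.46, and Sult5a1, a sulfotransferase, fell by 2.70 (adjusted p = 2.46e-06).

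For the other end of the lobule, 12 of 24 pericentral genes fell and 1 rose, with a median of -1.01. Slc1a2, a glutamate transporter of the cells next to the central vein, averaged 6.07 in CCl4 livers and 10.67 in healthy livers and fell by 4.6 (adjusted p = 5.44e-08). Of 13 hepatocyte transcription factors 2 fell, Rxra at -0.71 (adjusted p = 9.21e-05) and Onecut1 at -0.17, the second with a probe above background on 1 of 6 CCl4 and 3 of 4 healthy arrays. Of 12 genes of other arginine, ornithine and polyamine pathways, 3 fell and 2 rose. The lists were not tested as lists, and no difference between them was tested.

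**Figure D3:**
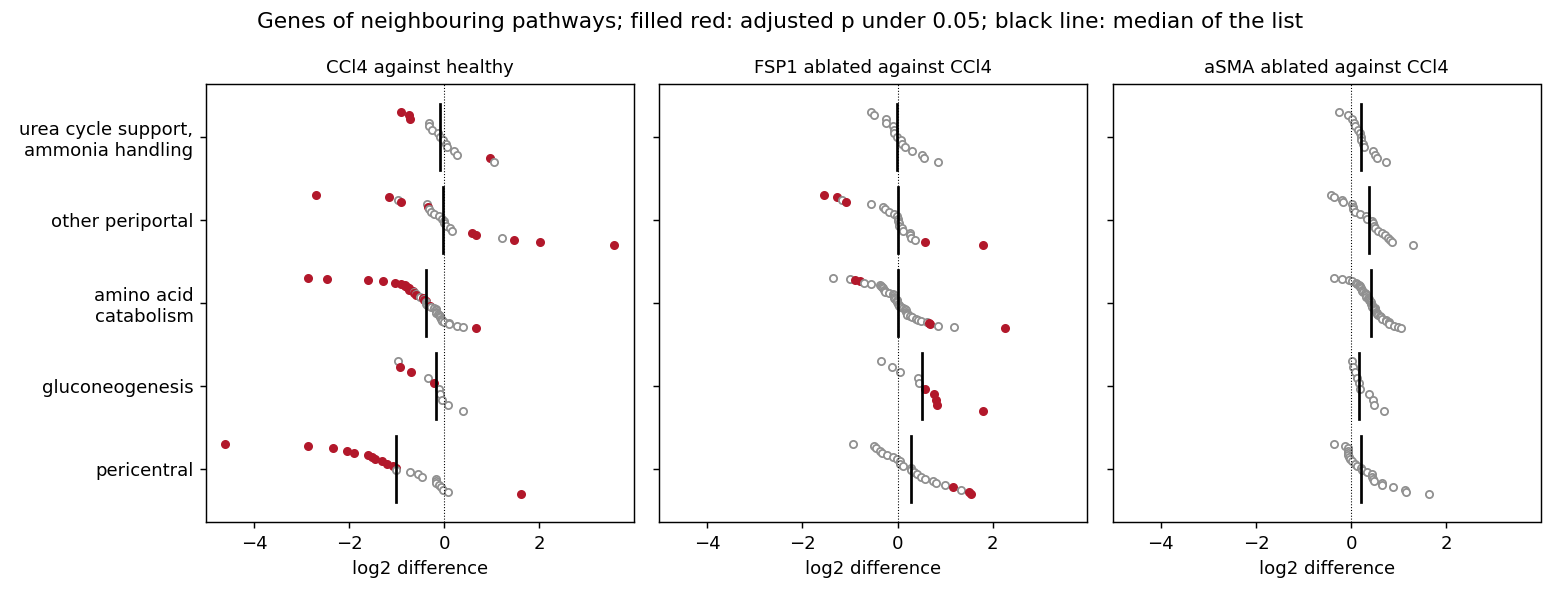
log2 differences (horizontal axes) of genes in 5 lists, 1 point a gene, in CCl4 against healthy, FSP1 ablated against CCl4 and aSMA ablated against CCl4 livers. Filled red points have an adjusted p under 0.05 and black lines are medians. In the left panel the median is -1.01 for pericentral genes and -0.08 for urea cycle support, and in the right panel no point is filled.

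FSP1 ablated livers were set against CCl4 livers to see how these hepatocyte genes stood after the ablation. None of the 8 genes passed by limma, against 13% of all genes, and 3 of 8 had an unadjusted p under 0.05, against 25.9% of all genes. Without FSP1 ablated array 2 the share that passed was 8.62%. The median difference was -0.11, beside 0.01 over all genes, with 4 genes positive and 4 negative. No gene was free of overlap between the arrays of both groups, where 10.6% of all genes were.

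Asl read 8.96, 9.0, 10.32 and 9.52 in FSP1 ablated livers, and 8.76, 8.41, 9.53, 6.76, 8.28 and 8.58 in CCl4 livers. The FSP1 ablated arrays lay above all CCl4 arrays but array 3. Asl averaged 9.45 ± 0.63 in FSP1 ablated livers (SD, n = 4) and differed by 1.06 (SE 0.40, adjusted p = 0.0992). Without CCl4 array 3 it differed by 1.30 (adjusted p = 0.0339) and against CCl4 arrays 4 to 6, which hold the low array 4, by 1.58 (adjusted p = 0.0193). Against CCl4 arrays 1 to 3, which are like the FSP1 ablated arrays in Xist and Alb signal, it differed by 0.55 (adjusted p = 0.491). Over 31 alternatives the adjusted p ranged from 0.0193 to 0.491.

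Cyp2f2 read 12.14, 10.44, 13.49 and 11.14 in FSP1 ablated livers, and 12.72, 12.27, 12.76, 12.68, 13.80 and 13.56 in CCl4 livers. Arrays 1, 2 and 4 of the ablated livers lay below every CCl4 array, and array 3 lay among the highest. The SD was 1.33 in FSP1 ablated livers, 0.15 in aSMA ablated, 0.59 in CCl4 and 0.17 in healthy livers. The difference from CCl4 livers was -1.16 (SE 0.44, adjusted p = 0.0964). Without FSP1 ablated array 3 it was -1.72 (adjusted p = 0.00454). Taking only CCl4 arrays 1 to 3, like the FSP1 ablated arrays in Xist and Alb signal, gave -0.78 (adjusted p = 0.382). Taking only arrays 4 to 6 gave -1.54 (adjusted p = 0.0455). The adjusted p of Cyp2f2 spanned 0.00454 to 0.382 over 31 alternatives.

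Ass1 read 12.91, 11.96, 13.68 and 13.29 in FSP1 ablated livers, against 13.25 to 14.23 in CCl4 livers, and differed by -0.70 (SE 0.29, adjusted p = 0.135). Pck1 read 7.67, 7.04, 8.47 and 8.70 in FSP1 ablated livers, a wider span than the 6.87 to 8.37 of CCl4 livers, and differed by 0.32 (SE 0.32, adjusted p = 0.582). It differed by 0.85 (adjusted p = 0.0731) from CCl4 arrays 1 to 3 and by -0.21 (adjusted p = 0.681) from arrays 4 to 6, within 0.0731 to 0.931 over all alternatives. Cps1, Hal, Otc and Arg1 differed by -0.30, -0.24, 0.09 and 0.02, with adjusted p from 0.521 to 0.94.

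The 4 FSP1 ablated arrays differed among themselves in most of the genes at once. Array 2 was the lowest of the group in 7 of 8 genes and array 3 the highest in 6 of 8. Cyp2e1, the pericentral cytochrome P450 that activates CCl4, read 13.83, 13.58, 14.48 and 13.73 on the same arrays, lowest on array 2 and highest on array 3. The hepatocyte markers averaged 12.31 to 12.51 on these 4 arrays. Without array 2 the difference from CCl4 livers was -0.37 for Ass1, 0.63 for Pck1, -0.13 for Cps1 and -0.71 for Cyp2f2, with adjusted p from 0.242 to 0.843. Without array 3 it was -0.94 for Ass1 (adjusted p = 0.0533), 0.15 for Pck1 and 0.77 for Asl, and without array 4 it was 0.079 for Pck1.

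Other genes of gluconeogenesis moved in this comparison. Of 10 measured genes 5 rose in FSP1 ablated livers against CCl4 livers and none fell, with a median of 0.51. Of all 12863 genes 710 passed as higher and 961 as lower. G6pc, glucose-6-phosphatase, averaged 13.26 in FSP1 ablated livers and 11.47 in CCl4 livers and rose by 1.79 (SE 0.45, adjusted p = 0.0163). Pcx, pyruvate carboxylase, rose by 0.80 (adjusted p = 0.00762), Gcgr by 0.83 (adjusted p = 0.00873) and Fbp1, fructose bisphosphatase, by 0.57 (adjusted p = 0.00796). The difference between Pck1 and these genes was not tested.

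None of 15 genes of urea cycle support passed, where 13% of all genes did in either direction. An unadjusted p under 0.05 was found for 4 of the 15, against 25.9% of all genes. Got2, the mitochondrial aspartate transaminase, came closest at -0.25 (adjusted p = 0.0595). Of 44 genes of amino acid catabolism 3 rose and 2 fell, among them Csad, which rose by 2.25 (SE 0.50, adjusted p = 0.00658), and Mat1a, the liver synthetase of S-adenosylmethionine, which rose by 0.67. Of 22 other periportal genes 2 rose and 3 fell, with Cdh1 at -1.27 (adjusted p = 0.00449) and Aldh1b1, a mitochondrial aldehyde dehydrogenase, at -1.56 (adjusted p = 0.0121). Of 24 pericentral genes 3 rose, Notum, a Wnt inhibitor, by 1.51, Rhbg, an ammonium transporter, by 1.16 and Slco1b2, an importer of organic anions, by 1.55. The mean over the stellate cell and fibroblast markers was 6.59 to 7.02 in FSP1 ablated livers and 7.68 to 8.16 in CCl4 livers, with 4 of 7 lower, and its part in these differences was not tested.

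The ablation of aSMA-expressing cells was examined in the same way. None of the 8 genes passed by limma between aSMA ablated and CCl4 livers, and of all 12863 genes 1 did, which is 0.00777%. That share was 1.51% without CCl4 array 4, 9.52% with CCl4 arrays 1 to 3, 13% with array weights and 1.65% with the Y-linked signal as a block. All 8 differences were positive, where 49.8% of all genes were, with a median of 0.52 beside -0.00 over all genes. An unadjusted p under 0.05 was found for 2 of 8 genes, Pck1 and Hal, against 11.2% of all genes, and with array weights 2 of 8 genes passed, Pck1 and Otc, where 13% of all genes did.

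Pck1 read 8.70, 8.48 and 8.88 in aSMA ablated livers, against 7.41, 6.87, 7.07, 7.95, 8.21 and 8.37 in CCl4 livers. All 3 arrays lay above every CCl4 array. Pck1 was the only one of the 8 genes whose arrays did not overlap here, where 4.79% of all genes did not. It averaged 8.69 ± 0.20 in aSMA ablated livers (SD, n = 3) and 7.65 ± 0.62 in CCl4 livers (SD, n = 6), and differed by 1.04 (SE 0.35, adjusted p = 0.267), with an interval of 0.29 to 1.79. CCl4 arrays 1 to 3 carry Xist signal like the ablated ones, and with them alone the difference was 1.57 (adjusted p = 0.00656). CCl4 arrays 4 to 6 carry the higher Alb signal of the aSMA ablated arrays, and with them alone the difference was 0.51 (adjusted p = 0.764). The adjusted p ranged from 0.00656 to 0.768 over 31 alternatives, and was 0.00808 with array weights and 0.0499 with the Y-linked signal as a block.

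Hal read 11.37, 10.49 and 10.72 in aSMA ablated livers and 9.66 to 10.65 in CCl4 livers, and differed by 0.70 (SE 0.31, adjusted p = 0.431). Asl read 8.98, 9.25 and 9.33, above all CCl4 arrays but array 3, and differed by 0.80 (SE 0.44, adjusted p = 0.546). Otc read 8.41, 8.61 and 8.68 and differed by 0.62 (SE 0.33, adjusted p = 0.515). Ass1 read 14.14, 14.10 and 13.98, above all CCl4 arrays but array 4, and differed by 0.41 (SE 0.32, adjusted p = 0.709). Cps1, Cyp2f2 and Arg1 differed by 0.22, 0.24 and 0.12, with adjusted p from 0.833 to 0.914.

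Most neighbouring lists leaned the same way, and no gene of any of them passed. The median was 0.42 for the 44 genes of amino acid catabolism, 17 of which had an unadjusted p under 0.05, against 11.2% of all genes. It was 0.38 for 22 other periportal genes, 0.21 for 15 genes of urea cycle support and 0.17 for 10 of gluconeogenesis. For 24 pericentral genes it was 0.22 and for 13 hepatocyte transcription factors 0.20. The 12 genes of other arginine, ornithine and polyamine pathways went the other way, with a median of -0.11 and none at an unadjusted p under 0.05. Uroc1, which acts after Hal in histidine breakdown, averaged 13.06 in aSMA ablated livers and 12.41 in CCl4 livers, a difference of 0.65 (adjusted p = 0.337). Hepatocyte markers averaged 12.84 to 12.88 in aSMA ablated livers and 12.33 to 12.83 in CCl4 livers, a mean that holds the probe of Alb, and their part in these differences was not tested.

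**Figure D4:**
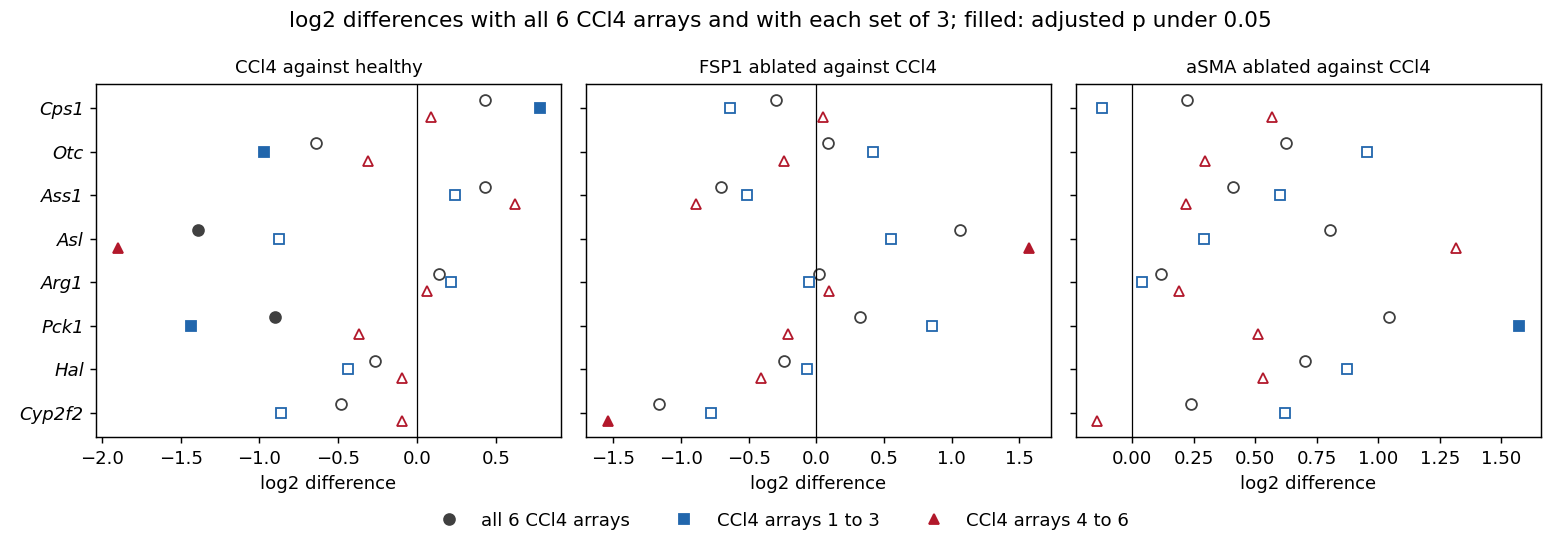
log2 differences (horizontal axes, with a range of their own in each panel) of the 8 genes with all 6 CCl4 arrays (circles), with CCl4 arrays 1 to 3 (squares) and with arrays 4 to 6 (triangles). Filled symbols have an adjusted p under 0.05. Pck1 is at -1.43 and -0.37 against healthy livers with the 2 sets of arrays, and Asl at -0.87 and -1.90.

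The CCl4 arrays split in different ways for different genes. Pck1, Otc and Cyp2f2 averaged 7.12, 7.61 and 12.58 on arrays 1 to 3 and 8.18, 8.27 and 13.35 on arrays 4 to 6. Cps1 and Asl went the other way, at 13.94 and 8.90 on arrays 1 to 3 and 13.25 and 7.88 on arrays 4 to 6. Cyp2e1 read 11.77 to 13.27 on arrays 1 to 3 and 13.75 to 13.91 on arrays 4 to 6. Sex, as Xist and Eif2s3y show it, goes with this division except on array 4, and so does the signal of the Alb probe, so sex and any other property that divides these arrays cannot be told apart here.

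FSP1 ablated and aSMA ablated livers were set against each other directly, since both comparisons above share the CCl4 arrays. The Alb probe read 6.41 to 6.66 on the FSP1 ablated and 8.83 to 9.26 on the aSMA ablated arrays. It divided CCl4 arrays 1 to 3 from arrays 4 to 6 in the same way. Between those parts Pck1, Hal, Ass1, Otc and Cyp2f2 averaged less on arrays 1 to 3, and Cps1, Asl and Arg1 averaged more. The ablations therefore cannot be told apart in this comparison from whatever divides the Alb signal, and its part was not tested. None of the 8 genes passed by limma, against 4.52% of all genes, and 3 had an unadjusted p under 0.05, against 20.2%. The 4.52% was 2.48%, 0.77% and 1.8% without aSMA ablated array 1, 2 and 3, 2.89% and 1.66% without FSP1 ablated array 1 and 2, and 19.8% with array weights, where Pck1, Hal, Ass1 and Cyp2f2 passed as lower. Of the differences 7 were negative and that of Asl was positive, with a median of -0.63 beside 0.01 over all genes. Ass1 read 12.91, 11.96, 13.68 and 13.29 in FSP1 ablated livers, all below the 14.14, 14.10 and 13.98 of aSMA ablated livers. It was 1 of 8 genes without overlap, where 23.7% of all genes had none. It differed by -1.11 (SE 0.35, adjusted p = 0.079), and without FSP1 ablated array 3 by -1.35 (adjusted p = 0.0338), in a range of 0.0038 to 0.215 over 29 alternatives.

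Cyp2f2 differed by -1.40 (SE 0.52, adjusted p = 0.134) and Hal by -0.94 (SE 0.34, adjusted p = 0.125) between FSP1 ablated and aSMA ablated livers. Pck1 differed by -0.72 (SE 0.38, adjusted p = 0.308), with an interval of -1.53 to 0.09. Without FSP1 ablated array 3 Cyp2f2 differed by -1.96 (adjusted p = 0.0125), and its adjusted p reached 0.326 over 29 alternatives. Asl differed by 0.26 (adjusted p = 0.82). In the lists, Ddah1, which degrades an inhibitor of nitric oxide synthesis, fell by 1.06 (adjusted p = 0.0297) and Agxt, a peroxisomal transaminase, fell by 1.90 (adjusted p = 0.0249), 2 of the 6 that passed as lower in FSP1 ablated livers among 15 genes of urea cycle support and 44 of amino acid catabolism.

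Against healthy livers, 1 of 8 genes passed in FSP1 ablated livers, where 17.8% of all genes did and 8.67% were lower, and none of 8 in aSMA ablated livers by limma, where 22.7% of all genes did. With the Y-linked signal as a block, which divides all FSP1 ablated from all healthy arrays, 1.29% of all genes and none of the 8 passed in FSP1 ablated livers. It divides all aSMA ablated from all healthy arrays too, and with this block 10.6% of all genes and none of the 8 passed there. Sex, as these signals show it, and treatment therefore cannot be told apart in either comparison. The 17.8% was 10.7% to 11.4% without healthy array 3 or 4 or FSP1 ablated array 1 or 2, and the 22.7% was 12.5% without aSMA ablated array 2. Cyp2f2 averaged 11.80 ± 1.33 in FSP1 ablated livers (SD, n = 4) and 13.45 ± 0.17 in healthy livers (SD, n = 4). It fell by 1.64 (SE 0.48, adjusted p = 0.0282), with array 3 of the ablated livers inside the healthy range. The mean over 3 neutrophil markers was 8.84 to 9.89 in FSP1 ablated livers and 6.94 to 7.92 in healthy livers, with all 3 higher, and its part in this fall was not tested. The adjusted p was 0.0888 without FSP1 ablated array 2, 0.0797 without array 4, up to 0.0675 without healthy array 2, 3 or 4, 0.256 on the deposited scale, 0.735 with the Y-linked signal as a block (a difference of -0.57), and 0.00122 to 0.735 over 29 alternatives.

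Pck1 averaged 7.97 ± 0.76 in FSP1 ablated livers (SD, n = 4), 8.69 ± 0.20 in aSMA ablated livers (SD, n = 3) and 8.55 ± 0.18 in healthy livers (SD, n = 4). Its differences from healthy livers were -0.58 (SE 0.35, adjusted p = 0.278) and 0.14 (SE 0.38, adjusted p = 0.826) for the FSP1 and aSMA ablation. Those of Asl were -0.32 (adjusted p = 0.659) and -0.58 (adjusted p = 0.41). Ass1 in aSMA ablated livers was 0.84 above healthy livers (SE 0.35, adjusted p = 0.0932), with 1 of 8 genes at an unadjusted p under 0.05, against 35.7% of all genes. Without healthy array 1 Ass1, Cps1 and Arg1 differed there by 1.11, 0.92 and 0.39 (adjusted p = 0.0193, 0.0241 and 0.0333). In the fit with the Y-linked signal as a block these genes differed by 0.84, -0.14 and 0.085 (adjusted p = 0.341, 0.855 and 0.845). The adjusted p of Ass1 ranged from 0.000689 to 0.341 over 29 alternatives.

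Across the 13 arrays of CCl4-treated liver some of the genes varied together. Pearson's r, given as a description over arrays that share 3 groups and 1 normalization, was 0.87 between Pck1 and Otc, 0.81 between Hal and Otc, 0.79 between Pck1 and Hal and 0.79 between Ass1 and Cyp2f2. With group means removed over all 17 arrays they were 0.84, 0.70, 0.76 and 0.55, in the same order, and that between Otc and Cyp2f2 was 0.83, against 0.71 over the 13 arrays. Cps1 went most closely with Arg1, at 0.59. Asl went with none of them closely over the 13 arrays, its highest r being 0.28, with Otc. Over all 17 arrays, the healthy ones included, its r was 0.43 with Otc and 0.35 with Pck1. With group means removed over the 17 arrays its highest r was 0.29, with Cyp2f2.

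The genes whose pattern was most like the mean of the 8 scaled genes over these 13 arrays were Mthfd1, an enzyme of folate metabolism, Cyp2c50, Zap70, Cyp2c37 and Gstt3, with r from 0.89 to 0.90. Those least like it were Plekha1, Thg1l, Srxn1, Lars and Npr3, with r from -0.89 to -0.88. Cyp2c50 and Cyp2c37 are on the pericentral list. The scaled mean was lowest on FSP1 ablated array 2, at -1.65, and highest on aSMA ablated arrays 2 and 3, at 0.85 and 0.81.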

How the data were processed

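Total RNA was labelled as biotinylated cRNA with an Ambion kit, per the labels' protocols. The deposited intensity values are 1 linear signal per probe and array, some below 0, and GenomeStudio is the program named in the submitters' processing notes. Its version and its correction and scaling steps: not given in the sources used here. A table of 34 value columns whose names match no label was not used. Signals were corrected with limma's normexp (offset 50), quantile normalized and put on the log2 scale, since the deposited table holds signals without detection p. A probe was kept when above the 95th percentile of its array's background (mode and SD below it) on at least 3 arrays, which left 17450 of 25697. Of all probes 23978 have 1 gene symbol, 0 several and 1719 none; 23962 matched RefSeq by Entrez identifier. A gene was read from its probe with the highest mean. One limma fit (limma 3.58.1, R 4.3.3; lmFit, eBayes) had group as its term. Tests were two-sided, p-values were adjusted by Benjamini-Hochberg over 12863 genes, and the fit was tested on simulated data. The genes, lists and tests were chosen with earlier results of these data known. From each list up to 4 genes with the smallest p in a comparison are named. Replicate numbers come from the titles. For same-numbered arrays of different groups 6 of 21 correlations of deviations were over 0.1 (median 0.04). For differently numbered arrays 18 of 85 were (median 0.02). The numbers were therefore not taken to pair samples, though correlations this weak cannot show that they do not. Alternatives were 3 other scalings, another offset, 2 filters, single probes, another variance model, array weights, blocks by number or Y-linked signal, only the groups compared, parts of the CCl4 arrays and leaving out each array.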

Additional observations from a re-analysis of the deposited data

Results flagged for a closer look

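Ass1 on healthy array 1 stood apart from the other healthy arrays. It read 14.06 there and 12.90 to 13.05 on the other 3, so that the gap took up 0.87 of the group's whole range. This was 1 of 24 sets of a gene and a group examined, and chance alone gives about 1 in 20. Cps1 and Arg1 were also highest on that array among the healthy ones, at 13.96 and 13.84.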

How the results depend on the processing

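The number of the 8 genes that passed stayed within 1.5 times its value in 19 of 31 alternatives for CCl4 against healthy livers and in 28 of 31 for each ablation against CCl4 livers. A count within that margin need not hold the same genes. For CCl4 against healthy it was 4 on the deposited scale (all higher, and neither Asl nor Pck1), 3 with arrays centred (all higher), 1 without a filter, 4 with array weights, 1 with CCl4 arrays 4 to 6 and 0 with the Y-linked block, and 0 to 3 when 1 array was left out. The shares of all genes that passed were 66.5% on the deposited scale, 56% with arrays centred, 23.3% without a filter, 41.3% with array weights, 27.3% with CCl4 arrays 4 to 6 and 19.4% with the Y-linked block. For FSP1 ablated against CCl4 it was 2 with CCl4 arrays 4 to 6 (17% of all genes) and 0 to 1 with 1 array left out. For aSMA ablated against CCl4 it was 2 with array weights (13% of all genes), 1 with CCl4 arrays 1 to 3 (9.52%), 1 with the Y-linked block (1.65%) and 0 to 0 with 1 array left out. Between the ablations it was 4 with array weights (19.8% of all genes) and 0 to 2 with 1 array left out. For FSP1 ablated against healthy it was 2 on the deposited scale (71.7% of all genes) and 2 with arrays centred (50.4%), Cps1 and Arg1 as higher in both, 0 with only the groups compared (14.8%), 0 with the Y-linked block (1.29%) and 0 to 2 with 1 array left out. For aSMA ablated against healthy it was 6 on the deposited scale (64.9% of all genes), 5 with arrays centred (53.3%), 3 with array weights (37%), all higher, and 0 to 3 with 1 array left out. Signs turned mostly against healthy livers, where the scale of those arrays differs. On the deposited scale Pck1, Hal, Otc and Cyp2f2 were at 0.12, 0.82, 0.52 and 0.31 in CCl4 livers, Pck1, Hal, Ass1, Asl and Otc at 0.52, 0.62, 0.63, 0.83 and 0.57 in FSP1 ablated livers, and Asl, Otc and Cyp2f2 at 0.59, 1.32 and 0.72 in aSMA ablated livers. With arrays centred Hal, Otc and Cyp2f2 were at 0.51, 0.16 and 0.029 in CCl4 livers, Pck1, Hal, Ass1, Asl and Otc at 0.19, 0.33, 0.36, 0.50 and 0.23 in FSP1 ablated livers, and Asl, Otc and Cyp2f2 at 0.29, 0.84 and 0.47 in aSMA ablated livers. With the Y-linked block Hal, Cps1 and Cyp2f2 were at 0.076, -0.10 and 0.23 in CCl4 livers, Pck1, Hal, Cps1, Arg1 and Otc at 0.39, 0.0082, -0.66, -0.0089 and 0.18 in FSP1 ablated livers, Cps1, Otc and Cyp2f2 at -0.14, 0.72 and 0.83 in aSMA ablated livers, all against healthy, and Arg1 at -0.035 and Cps1 at -0.042 for FSP1 and aSMA ablated against CCl4. With array weights Asl was at -0.019 between the ablations. With the replicate block, which rests on numbers not known to pair the samples, 3, 0, 0, 0, 1 and 0 genes passed in the 6 comparisons. Of all genes 32.9%, 9.8%, 0.179%, 4.36%, 17.6% and 20.3% passed with it, in the same order. Otc was then at 0.052 in aSMA ablated against healthy livers, Arg1 at -0.035 in FSP1 ablated against CCl4 and Cps1 at -0.084 in aSMA ablated against CCl4. With CCl4 arrays 1 to 3 Arg1 was at -0.054 for the FSP1 and Cps1 at -0.12 for the aSMA ablation, and with arrays 4 to 6 Pck1, Cps1 and Otc were at -0.21, 0.048 and -0.24 for the FSP1 and Cyp2f2 at -0.14 for the aSMA ablation. With 1 array left out, Arg1, Otc and Hal ranged over -0.041 to 0.071, -0.25 to 0.42 and -0.43 to 0.092 in FSP1 ablated against CCl4, Ass1 over -0.51 to 0.060 in FSP1 ablated against healthy, Otc over -0.13 to 0.073 in aSMA ablated against healthy and Asl over -0.03 to 0.42 between the ablations. The cause was not tested. With 3 to 6 arrays a group and no control probes, differences near the threshold and the scale of the healthy arrays limit what can be read.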
